A study of Homo sapiens with 6 samples.

Results

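Induced tet-on CaSm Panc-1 cells were compared with tet-on driver Panc-1 cells that had received the same drug, gene by gene and by functional group, on a real-time PCR array of cancer genes. Panc-1 is a human pancreatic cancer cell line. CaSm, also called LSm1, is a subunit of the cytoplasmic ring of Sm-like proteins that binds mRNA tails and takes part in decapping and 5′ to 3′ mRNA decay, and it is overproduced in pancreatic tumors. All cells carried the pRetro-X Tet-on-Advanced activator and were kept under G418. The driver cells were a stable pool with the activator alone. The induced cells were a stable pool derived from it that also carried pRetro-X-Tight-Pur-CaSm and had been selected with puromycin. The paper states that the CaSm pool was propagated with 1 μg/ml puromycin, which the stated driver medium did not hold. Both sides received 1 μg/ml doxycycline for 4 weeks, so this drug was shared. The CaSm construct, puromycin selection and exposure, and the induction of CaSm cannot be told apart. The members were the 4 plates that the labels name CaSm+Doxy (replicates 1 and 2) and Driver+Doxy (replicates 2 and 3), of 6 plates in the series. The other 2 plates, labelled CaSm, held the CaSm pool cultured without doxycycline, and they are given beside some results as a further level.

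A PCR array measures each gene by its threshold cycle (Ct), the cycle at which its product crosses a set fluorescence, so 1 cycle less stands for about 1 log2 unit more template. Each value below is a ΔCt in cycles, obtained by capping Ct at 35 and subtracting the average of B2M, HPRT1 and GAPDH for that plate, and a lower ΔCt is a higher level. Log2 fold changes are driver mean ΔCt minus induced mean ΔCt, so positive values are higher in induced cells. The 3 normalizing genes had a mean Ct of 19.7 and 20.2 on the induced plates, and 20.1 and 20.2 on the driver plates. Of 89 genes, 80 had a Ct under 35 on all 4 plates and 9 were at the limit on at least 1 of them. TWIST1 was at the limit on all 4. It and the normalizing genes were not tested, which left 85 genes. With 2 plates a side the smallest two-sided exact permutation p is 0.333, so single genes were tested by limma. The adjusted p-values are Benjamini-Hochberg values over the 85 genes. The sources do not say whether plates came from separate cultures, so these p-values may measure technical spread only. Precision is limited by the number of plates. Standard errors of log2 fold changes ranged from 0.23 to 0.67, with a median of 0.26. Of 77 tested genes under the limit on all 4 plates, 60 (77.9%) had the lower ΔCt on induced replicate 1 and 55 (71.4%) on driver replicate 2, so genes on a plate deviated together. LSM1 itself was not analysed here.

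The labelled cell type can be checked with few genes, too few to place the cells as epithelial or mesenchymal. They do not check the CaSm or driver label. Of the markers listed for this check, the epithelial genes ITGA2, ITGA3 and MET were measured on every plate, with mean Ct values of 24.0, 22.1 and 22.8 over the 4 plates. GZMA, a lymphocyte protease, and TEK, an endothelial receptor, were under the limit on 1 of the 4 plates, and TWIST1, a mesenchymal transcription factor, on none.

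Against driver cells, 20 of the 85 genes (23.5%) passed an adjusted p of 0.05 in limma and are said to be called, 9 higher (10.6%) and 11 lower (12.9%) in induced cells. At least a 1.5-fold difference was found for 32 genes (37.6%). The plates of both groups did not overlap for 46 genes (54.1%), 25 of them higher (29.4%) and 21 lower (24.7%) in induced cells. The table of 20 genes printed by the study was chosen on these plates and holds 17 of the 20 called genes. The 69 genes outside it are described here in more detail. Of the 65 of them that were tested, 3 were called: RPL13A and THBS1 were higher and CDC25A was lower. RPL13A and THBS1 were called in 14 of 14 alternative settings with a test and CDC25A in 7 of 14. The labels carry a further mark of unstated meaning, called a run mark here. On the plates of the run mark that both groups share, 1 plate each, the log2 differences were 1.61, 1.30 and −1.75.

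**Figure D1:**
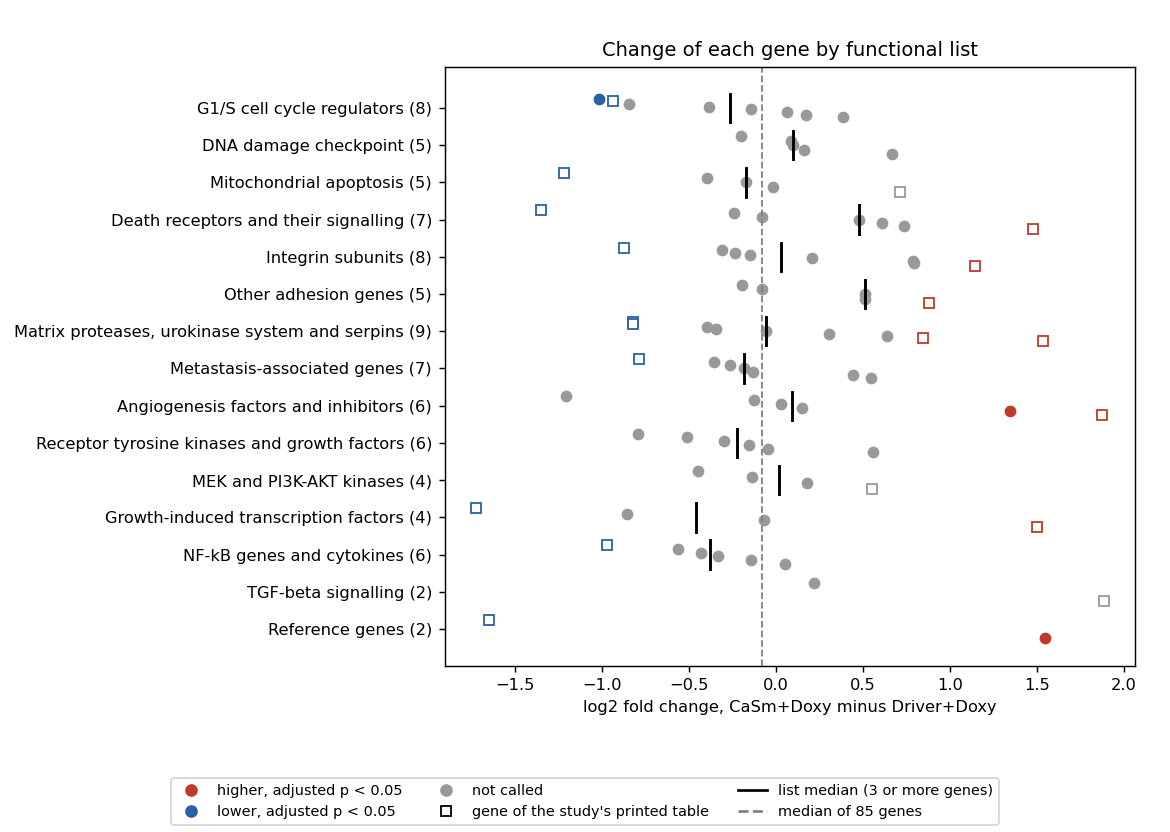
Log2 fold change of each tested gene that belongs to a group, induced tet-on CaSm against driver cells with doxycycline (horizontal axis), by functional group (vertical axis). Each symbol is a gene, red or blue where it was called higher or lower by limma and grey where it was not, open squares are genes of the table printed by the study, black bars are group medians and the dashed line is the median of all 85 genes. Most groups hold symbols on both sides of the dashed line, and of the groups with more than 2 genes the growth-induced transcription factors spread the most, from −1.72 to 1.5.

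RPL13A, which encodes a protein of the large ribosomal subunit and serves as a reference gene on the array, was the most changed gene outside that table. Its ΔCt was 0.54 and 0.49 on the induced plates, 2.10 and 2.02 on the driver plates and 1.58 and 1.90 on the plates without doxycycline. Both induced plates were at the higher level and both driver plates at the lower, with a gap much wider than the difference between plates of a group. The log2 fold change was 1.55 (95% confidence interval 1.02 to 2.07), or 2.92-fold, with an adjusted p of 0.00103 from limma.

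ACTB, the cytoskeletal actin that also serves as a reference, went the other way. It had a ΔCt of −2.29 and −2.09 on the induced plates, −3.97 and −3.71 on the driver plates and −3.79 and −3.95 without doxycycline. Its level was lower on both induced plates than on any other plate, by 3.13-fold relative to the driver plates (log2 fold change −1.65, adjusted p = 0.000827 from limma). The reference genes used as normalizers also differed in their order. B2M, a light chain of class I histocompatibility molecules, had a ΔCt of 0.05 and 0.15 on the induced plates and 0.50 and 0.63 on the driver plates. GAPDH, a glycolytic enzyme, lay on the other side, at −1.84 and −1.71 against −2.08 and −2.26. HPRT1, a purine salvage enzyme, overlapped, at 1.80 and 1.57 against 1.59 and 1.63. Using B2M alone as normalizer shifted every log2 fold change by −0.47, HPRT1 alone by 0.07, GAPDH alone by 0.39, and the median of all genes under 35 by −0.25. These shifts are the same for every gene, so the difference between any pair of genes or group medians does not depend on the normalizer, but a sign does. The medians of the death receptor, other adhesion and growth-induced transcription factor groups kept their sign under these 4 alternatives, and those of the other groups with more than 2 genes did not.

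**Figure D2:**
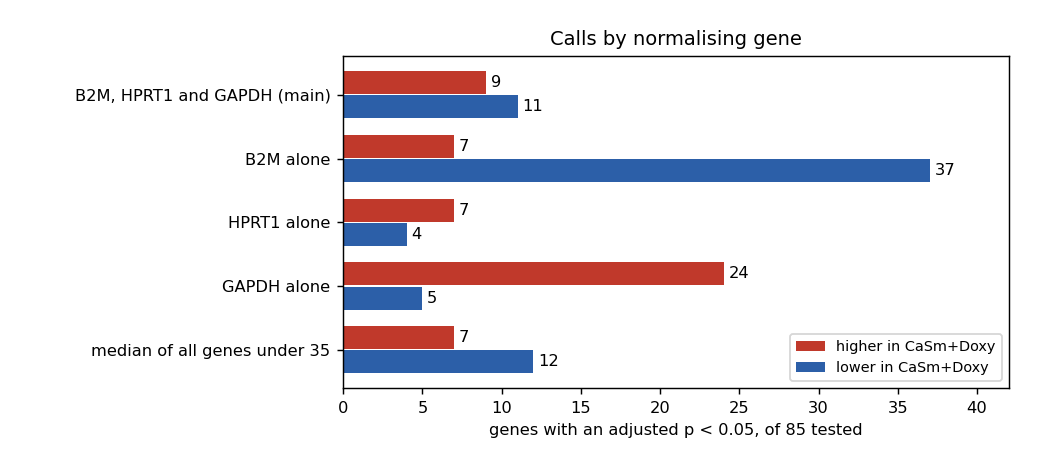
Number of genes called higher (red) and lower (blue) by limma among 85 genes, under each choice of normalizing genes. Calls were 9 higher and 11 lower with the 3 genes together, 7 and 37 with B2M alone, 7 and 4 with HPRT1 alone, 24 and 5 with GAPDH alone, and 7 and 12 with the median of all genes.

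The G1/S group holds the cyclins, kinases and phosphatase that carry cells into DNA synthesis and the inhibitors that hold them back. E2F1 is a transcription factor that switches on S phase genes, and CDC25A is the phosphatase that removes inhibitory phosphates from cyclin-dependent kinases. These were the 2 called genes of the 8 tested, both lower, beside 23.5% called and 12.9% called lower among all genes. Their promoter windows are shown because they are the called members of this group and because CDC25A is a known E2F target. Each runs from 250 bases before to 50 after the RefSeq start on GRCh38.p14, minus strand, at chr3:48188368-48188667 for CDC25A and chr20:33686336-33686635 for E2F1. Capitals mark an E2F-type motif, searched on both strands as TTTGGCGC or TTTCGCGC.
CDC25A: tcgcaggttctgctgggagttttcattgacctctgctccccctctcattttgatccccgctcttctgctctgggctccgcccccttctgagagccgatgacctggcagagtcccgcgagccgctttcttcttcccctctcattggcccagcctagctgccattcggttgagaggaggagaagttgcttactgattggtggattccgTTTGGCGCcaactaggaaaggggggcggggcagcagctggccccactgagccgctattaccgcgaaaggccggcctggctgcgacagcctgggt
E2F1: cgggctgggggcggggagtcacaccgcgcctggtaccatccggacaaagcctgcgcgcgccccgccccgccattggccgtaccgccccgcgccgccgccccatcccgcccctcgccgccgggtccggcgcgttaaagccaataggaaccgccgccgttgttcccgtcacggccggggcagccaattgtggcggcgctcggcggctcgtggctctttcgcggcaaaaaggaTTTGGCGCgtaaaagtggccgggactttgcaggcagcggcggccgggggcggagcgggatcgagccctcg
The match began 44 bases before the start in CDC25A and 20 before it in E2F1. The 7 genes of the group with a window had 8 windows, and 2 of these genes, CDC25A and E2F1, held the motif. Among all genes, 403 of 35116 windows (1.15%) held it, a count of windows and not of genes. The search was chosen with earlier results of these data known. A match describes the letters only, and CDK2 had no window in the table used.

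CDC25A had a ΔCt of 8.27 and 9.0 on the induced plates, 7.25 and 7.98 on the driver plates and 6.83 and 6.95 without doxycycline. The plates did not overlap, but the nearest induced and driver plates were closer to each other than the plates within either group. The fall was 2.03-fold (log2 fold change −1.02, 95% confidence interval −1.72 to −0.32, adjusted p = 0.0389 from limma). It was no longer called without CaSm+Doxy replicate 2 (−0.65, adjusted p = 0.188 from limma) or without Driver+Doxy replicate 2 (−0.65, adjusted p = 0.267). E2F1 fell by 0.94 on the log2 scale (adjusted p = 0.0389), and its call was lost without the same plates (adjusted p = 0.142 and 0.197). Over all alternatives with a test, the adjusted p of CDC25A ranged from 0.00288 to 0.267. On the plates without doxycycline both genes were nearer to the driver plates, and on the opposite side of them from the induced plates, with log2 differences from driver cells of 0.72 and 0.60. For E2F1 the paper reports a decrease against driver cells by separate real-time PCR as well.

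The rest of the G1/S group ranged from −0.84 to 0.39 in log2 fold change, and none was called. CDKN2A, which encodes the kinase inhibitor p16, had a ΔCt of 12.84 and 13.68 on the induced plates against 12.02 and 12.81 on the driver plates, values that come late in the run (mean Ct 32.9). Its log2 fold change was −0.84 (adjusted p = 0.119 from limma), and it was called without CaSm+Doxy replicate 1 (−1.26, adjusted p = 0.0322) and without Driver+Doxy replicate 3 (−1.24, adjusted p = 0.0156), but was −0.42 without CaSm+Doxy replicate 2 (0.475) and −0.45 without Driver+Doxy replicate 2 (0.489). CDKN1A, which encodes the kinase inhibitor p21, was the least different, at 2.55 and 2.39 against 2.58 and 2.48. Its log2 fold change of 0.06 had a 95% confidence interval from −0.49 to 0.62, within 2-fold either way, but the sign turns with B2M alone or the all-gene median. The median of the 8 genes was −0.26, beside −0.08 for all 85 genes.

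The DNA damage checkpoint group had no called gene among 5, beside 23.5% of all genes. For none of the 5 did the plates separate, beside 54.1% of all genes. ATM, the kinase that responds to DNA breaks, was the most different, at 6.23 and 6.98 against 6.80 and 7.74. It gave 0.67 (−0.09 to 1.43, adjusted p = 0.179 from limma), and with a plate left out it ranged from 0.20 without Driver+Doxy replicate 3 (adjusted p = 0.829) to 1.14 without Driver+Doxy replicate 2 (adjusted p = 0.0276). On the run mark that both groups share, it was −0.18. BRCA1, CHEK2 and MDM2 lay between −0.20 and 0.16. The 95% interval lay within 2-fold for 4 of the 5 genes.

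Apoptosis genes were divided into those acting at mitochondria and those acting through death receptors. At mitochondria, BAD, a sensitizer that binds pro-survival BCL2 proteins, was the only called gene of 5, beside 23.5% of all genes. It had a ΔCt of 5.26 and 5.74 on the induced plates, 4.34 and 4.22 on the driver plates and 4.24 and 4.67 without doxycycline. It fell by 1.22 on the log2 scale (adjusted p = 0.00728 from limma). BCL2L1, which encodes the pro-survival Bcl-XL, had 3.84 and 4.03 against 4.52 and 4.77, without overlap, and a log2 fold change of 0.71 (adjusted p = 0.119 from limma). The paper reports the same directions for BAD and BCL2L1 by its separate real-time PCR. The effectors outside the table of the study differed less. APAF1, the scaffold of the apoptosome, gave −0.40 (95% confidence interval −1.05 to 0.25), and BAX, a pore-forming protein, gave −0.17 (−0.78 to 0.43), with a sign that turns with GAPDH alone. The median of the group was −0.17.

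In the death receptor group 1 gene rose and 1 fell, of 7 tested, beside 10.6% called higher and 12.9% called lower among all genes. TNFRSF10B, a receptor for TRAIL, rose by 1.48 on the log2 scale (limma, adjusted p = 0.00247). Its ΔCt was 4.51 and 4.78 on the driver plates and 2.87 and 3.47 on the induced plates. FAS, the receptor for FAS ligand, had 7.34 and 7.60 on the driver plates and 8.79 and 8.85 on the induced plates, and it fell by 1.35 on the log2 scale (adjusted p = 0.00307 from limma). The paper reports that its separate real-time PCR did not bear out the lower FAS. Without doxycycline the log2 differences from driver cells were −1.09 for FAS and 0.75 for TNFRSF10B. TNFRSF10B and FAS can be set against each other within a plate, with no normalizer. The Ct of FAS minus that of TNFRSF10B was 5.92 and 5.38 on the induced plates, 2.83 and 2.82 on the driver plates and 4.99 and 4.34 on the plates without doxycycline. The induced and driver plates were therefore 2.83 cycles apart on average, and the plates without doxycycline lay between them.

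Among the other death receptor genes none was called, and 3 of them lay higher on both induced plates than on both driver plates, beside 29.4% of all genes. TNFRSF25, a death receptor related to TNFRSF1A, had a ΔCt of 9.22 and 9.91 against 10.18 and 10.42, and a log2 fold change of 0.74 (adjusted p = 0.0886 from limma). It became 1.08 without CaSm+Doxy replicate 2 (adjusted p = 0.0246) and 0.39 without CaSm+Doxy replicate 1 (0.419). CASP8, the initiator caspase downstream of these receptors, had 6.98 and 7.29 against 7.55 and 7.94, a log2 fold change of 0.61 (adjusted p = 0.119 from limma). CFLAR, an inhibitor of that caspase, was the other. TNFRSF1A, the main receptor for TNF, was at 3.31 and 3.15 against 3.23 and 3.07, or −0.08 (95% confidence interval −0.60 to 0.44), and the sign turns with GAPDH alone. The median of the 7 genes was 0.48, which was 0.56 above that of all genes whatever the normalizer, and it was 0.01 when B2M was used alone and 0.87 for GAPDH alone. It was 0.09 with the run mark as a block, and 0.09 on the plates of the shared run mark alone. With a plate left out it ranged from 0.22 without Driver+Doxy replicate 3 to 0.74 without Driver+Doxy replicate 2. GZMA counts in this group but was at the limit on 3 of the 4 plates.

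**Figure D3:**
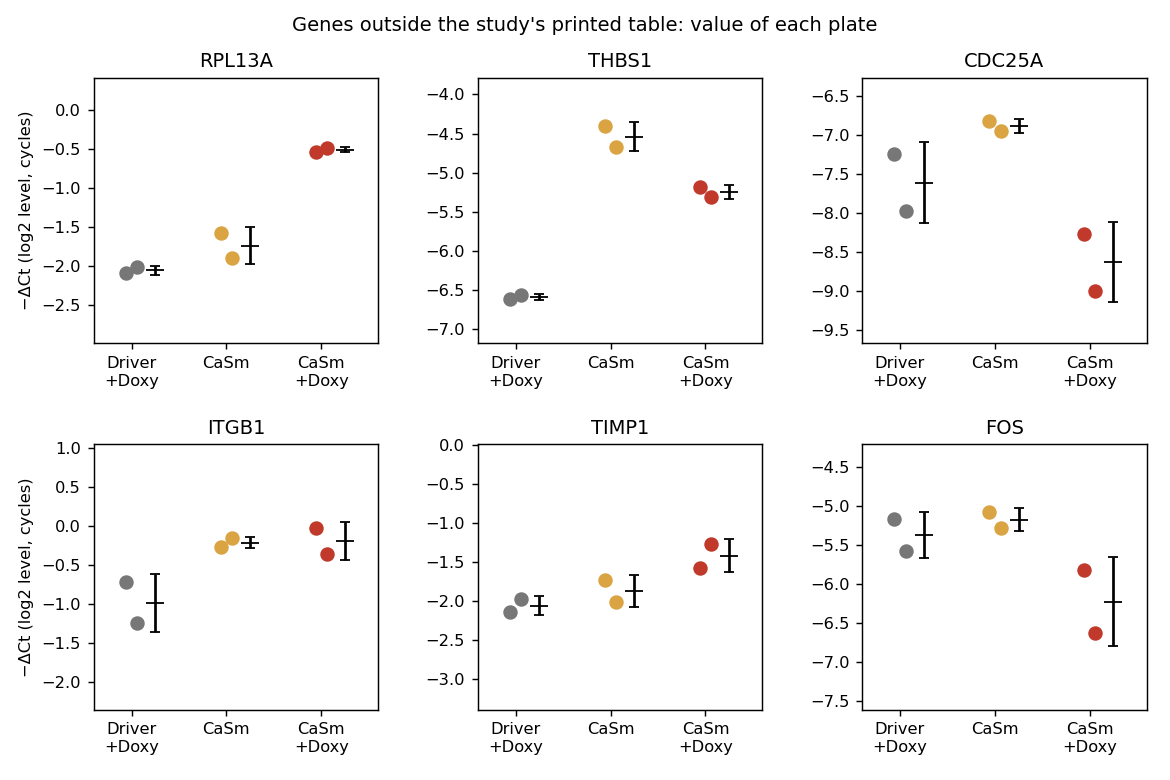
Level (−ΔCt in cycles, higher is more template) of RPL13A, THBS1, CDC25A, ITGB1, TIMP1 and FOS on each plate of driver cells with doxycycline, CaSm cells without it and CaSm cells with it. Points are plates and bars are mean ± SD (n = 2). The induced plates of RPL13A stand apart from the other 4 plates, and for THBS1 the plates without doxycycline are the highest.

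Angiogenesis factors included the only other gene outside that table to be called higher. THBS1, which encodes the secreted angiogenesis inhibitor thrombospondin 1, had a ΔCt of 5.19 and 5.32 on the induced plates, 6.62 and 6.57 on the driver plates and 4.41 and 4.67 on the plates without doxycycline. Both groups with the CaSm construct were above driver cells, and the plates without doxycycline were above the induced plates. The log2 fold change was 1.34 (95% confidence interval 0.82 to 1.86), or 2.53-fold, with an adjusted p of 0.00212 from limma. The difference of the plates without doxycycline from driver cells was 2.05, and it shares the driver plates with the first comparison.

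VEGFA, the main angiogenic growth factor, rose as well, from 4.60 and 4.94 to 2.81 and 2.99 (log2 fold change 1.87, adjusted p = 0.00066 from limma). Its plates without doxycycline lay between, at 3.6 and 3.87. COL18A1, the collagen from which endostatin is cut, was at 1.13 and 1.52 against 1.54 and 1.41. That is 0.15 (95% confidence interval −0.41 to 0.71), with a sign that turns with B2M alone or the all-gene median. ANGPT1, ANGPT2 and TEK, the angiopoietins and their receptor, had mean Ct values from 33.5 up to the limit, and ANGPT1 and TEK were under it on 1 of the 4 plates. In all, 2 of the 6 genes of this group were called, and both rose, beside 10.6% called higher among all genes.

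Integrins are pairs of α and β subunits that bind cells to matrix, and MTSS1, MCAM and PNN are other genes of adhesion and the cell cortex. In the integrin group ITGB3 rose and ITGA2 fell, and the other 6 subunits were not called, beside 23.5% called among all genes. ITGB3, which pairs with αV, changed from a ΔCt of 7.22 and 7.66 to 6.0 and 6.60 (log2 fold change 1.14, adjusted p = 0.0199 from limma). ITGA2, the collagen-binding α2 subunit, changed from 3.43 and 3.56 to 4.23 and 4.51 (−0.87, adjusted p = 0.029 from limma).

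With a plate left out, the log2 fold change ranged from 0.84 to 1.44 for ITGB3 and from −1.01 to −0.73 for ITGA2. Both integrin calls were lost in some of these fits, which also have fewer plates. That of ITGB3 was lost without CaSm+Doxy replicate 1 (adjusted p = 0.0933) and without Driver+Doxy replicate 3 (0.0903). That of ITGA2 was lost without CaSm+Doxy replicate 2 (0.118), Driver+Doxy replicate 2 (0.158) or Driver+Doxy replicate 3 (0.0877). Within a plate, the Ct of ITGA2 minus that of ITGB3 was −1.77 and −2.09 on the induced plates, −3.79 and −4.10 on the driver plates and −3.65 and −3.81 without doxycycline. The induced plates stood apart from the other 4 plates, which overlapped.

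ITGB1, the common β1 partner of ITGA1, ITGA2, ITGA3 and ITGA4, was the most different integrin outside the table. Its ΔCt was 0.03 and 0.37 on the induced plates and 0.73 and 1.25 on the driver plates, with 0.27 and 0.16 on the plates without doxycycline. The groups did not overlap, and the log2 fold change was 0.79 (95% confidence interval 0.21 to 1.38, adjusted p = 0.0504 from limma). It was called without CaSm+Doxy replicate 2 (0.96, adjusted p = 0.0484) and without Driver+Doxy replicate 2 (1.05, adjusted p = 0.0453), but was 0.62 without CaSm+Doxy replicate 1 (0.212) and 0.53 without Driver+Doxy replicate 3 (0.451). ITGA3, a laminin-binding subunit, had 1.51 and 1.74 against 2.05 and 2.77, a log2 fold change of 0.79 (adjusted p = 0.0843 from limma), which became 1.15 without Driver+Doxy replicate 2 (adjusted p = 0.0274) and 0.43 without Driver+Doxy replicate 3 (0.57). On the plates without doxycycline ITGA3 had 1.09 and 1.62, a log2 difference from driver cells of 1.05. The Ct of ITGA2 minus that of ITGB1, its partner, was 4.20 and 4.14 on the induced plates, 2.70 and 2.31 on the driver plates and 3.04 and 3.42 without doxycycline. ITGB5, another partner of αV, was at 1.12 and 1.48 against 1.20 and 1.10. Its value of −0.15 (−0.77 to 0.47) turns sign with GAPDH alone. The integrin median was 0.03.

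Of the other adhesion genes, MTSS1, an actin-binding protein, was the only called gene of 5, beside 23.5% of all genes. It rose by 0.88 on the log2 scale (adjusted p = 0.029 from limma) at a mean Ct of 32.0. Without doxycycline it went the other way, with a log2 difference from driver cells of −0.84. Its call was lost without CaSm+Doxy replicate 1 (adjusted p = 0.15), Driver+Doxy replicate 2 (0.158) or Driver+Doxy replicate 3 (0.0903). PNN, a protein of desmosomes and splicing speckles, had a ΔCt of 3.33 and 3.39 against 3.81 and 3.93, and EPDR1, an ependymin-related protein, had 2.38 and 2.35 against 2.80 and 2.95. Each was higher on both induced plates, with a log2 fold change of 0.51 and an adjusted p of 0.119 from limma. MCAM, an adhesion molecule of the immunoglobulin family, overlapped fully, at 3.83 and 4.28 against 3.71 and 4.24. The median of the group was 0.51, which was 0.59 above that of all genes, and it was 0.05 when B2M was used alone and 0.91 for GAPDH alone.

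In the group of matrix proteases, the urokinase system and serpins, 4 of 9 genes were called, 2 in each direction, beside 23.5% of all genes. PLAUR, the urokinase receptor, rose by 1.54 on the log2 scale (limma, adjusted p = 0.00147), with ΔCt going from 7.69 and 7.82 to 6.05 and 6.39. Without doxycycline it had 6.41 and 6.78, a log2 difference from driver cells of 1.16. Its ligand PLAU, urokinase, lay higher on both induced plates, at 0.26 and 0.34 against 0.60 and 0.61, but the log2 fold change of 0.31 had a 95% confidence interval from −0.21 to 0.82, and its sign turns with B2M alone. MMP1, an interstitial collagenase, rose by 0.85 (adjusted p = 0.0384 from limma) and SERPINB5, the serpin maspin, fell by 0.82 on the log2 scale (adjusted p = 0.0428). Both have late Ct values, with means of 31.6 and 32.9. Against driver cells the plates without doxycycline differed by 0.05 for MMP1 and −0.94 for SERPINB5.

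The calls of MMP1 and SERPINB5 were less stable than that of PLAUR. Leaving out CaSm+Doxy replicate 1, Driver+Doxy replicate 2 or Driver+Doxy replicate 3 ended the call of MMP1, with adjusted p-values of 0.191, 0.267 and 0.0547. Leaving out any of the 4 plates ended the call of SERPINB5, with adjusted p-values of 0.0546 and 0.142 for the induced plates 1 and 2, and 0.148 and 0.175 for the driver plates 2 and 3. TIMP1, an inhibitor of matrix metalloproteinases, had 1.58 and 1.28 against 2.15 and 1.98, without overlap, and a log2 fold change of 0.64 (95% confidence interval 0.09 to 1.18, adjusted p = 0.0843 from limma). MMP2, a gelatinase, was at 3.54 and 4.15 against 3.62 and 3.95. It gave −0.06 (−0.67 to 0.56), with a sign that turns with HPRT1 alone or GAPDH alone. The group median was −0.06.

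The metastasis-associated group holds reported promoters and suppressors of spread. NME1, a nucleoside diphosphate kinase known as a metastasis suppressor, was the only called gene of 7, beside 23.5% of all genes. It fell by 0.79 on the log2 scale (limma, adjusted p = 0.0374), with ΔCt going from 1.04 and 1.22 to 1.90 and 1.94. Without doxycycline its log2 difference from driver cells was 0.23. The paper reports that its separate real-time PCR found no significant difference in NME1. The call was lost without any of the 4 plates, with adjusted p-values of 0.0829 and 0.107 for the induced plates 1 and 2 and 0.234 and 0.111 for the driver plates 2 and 3. NME4, a mitochondrial member of the same family, overlapped between groups, at 1.34 and 1.35 against 1.36 and 1.06. Its log2 fold change was −0.13 (95% confidence interval −0.69 to 0.43), and the sign turns with GAPDH alone. HTATIP2, an oxidoreductase also known as TIP30, was the most different gene outside the table, at 2.32 and 2.70 against 2.86 and 3.25. It gave 0.55 (−0.02 to 1.11, adjusted p = 0.129 from limma). MTA1, MTA2, S100A4 and SNCG lay between −0.35 and 0.44, and TWIST1 had no measured level. The group median was −0.18.

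The growth-induced transcription factors spread the most of the groups with more than 2 genes. MYC, a driver of cell growth, rose by 1.5 on the log2 scale (limma, adjusted p = 0.00488), with ΔCt going from 6.46 and 6.95 to 4.85 and 5.56. ETS2, a transcription factor downstream of RAS signaling, fell by 1.72 (adjusted p = 0.00066), from 2.86 and 2.81 to 4.53 and 4.59. Within a plate, the Ct of ETS2 minus that of MYC was −0.32 and −0.97 on the induced plates, −3.6 and −4.14 on the driver plates and −2.48 and −2.67 without doxycycline. The 3 groups were separated on this measure, with a mean difference of 3.23 cycles between induced and driver plates.

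FOS and JUN are the partners of the AP-1 complex and were both outside the table. FOS had a ΔCt of 5.83 and 6.63 on the induced plates, 5.17 and 5.58 on the driver plates and 5.08 and 5.28 without doxycycline. It was lower on both induced plates, with a log2 fold change of −0.85 (95% confidence interval −1.52 to −0.19, adjusted p = 0.064 from limma). It was called without CaSm+Doxy replicate 1 (−1.25, adjusted p = 0.0114) and without Driver+Doxy replicate 3 (−1.06, adjusted p = 0.0489), but was −0.45 without CaSm+Doxy replicate 2 (0.318) and −0.65 without Driver+Doxy replicate 2 (0.267). JUN overlapped, at 4.97 and 5.71 against 5.0 and 5.54, and its −0.07 (−0.79 to 0.65) turns sign with HPRT1 alone or GAPDH alone. The group median was −0.46, and it was −0.93 when B2M was used alone and −0.07 for GAPDH alone.

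The receptor tyrosine kinases and growth factors, which act upstream of RAS, had no called gene among 6, beside 23.5% of all genes. PDGFA, a platelet-derived growth factor chain, had a ΔCt of 6.34 and 6.65 against 6.87 and 7.23, higher on both induced plates (log2 fold change 0.56, adjusted p = 0.119 from limma). FGFR2, a fibroblast growth factor receptor, was lower on both, at 7.26 and 7.09 against 6.71 and 6.61 (−0.51, adjusted p = 0.119). MET, the receptor for hepatocyte growth factor, overlapped, at 2.55 and 3.01 against 2.49 and 2.97. Its −0.05 (95% confidence interval −0.65 to 0.55) turns sign with HPRT1 alone or GAPDH alone. IGF1, a ligand, was lower on both induced plates (−0.79, adjusted p = 0.0843 from limma) but at the limit on 1 of them, with a mean Ct of 34.5. The group median was −0.23.

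The kinases below these receptors, MEK and the PI3K-AKT branch, also had no called gene, of 4 tested, beside 23.5% of all genes. MAP2K1, which encodes MEK1, had 2.99 and 2.89 on the induced plates and 3.44 and 3.54 on the driver plates, a log2 fold change of 0.55 (adjusted p = 0.111 from limma). PIK3R1, the regulatory subunit of PI3K, overlapped, at 7.56 and 7.96 against 7.01 and 7.61 (−0.45, 95% confidence interval −1.06 to 0.16). AKT1 was at 3.45 and 3.88 against 3.46 and 3.59. Its −0.14 (−0.75 to 0.48) turns sign with GAPDH alone. The group median was 0.02.

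Of the 6 NF-κB genes and cytokines, TNF was the only called gene, beside 23.5% called among all genes. Its ΔCt was 13.57 and 13.13 on the induced plates, 12.51 and 12.25 on the driver plates, and 14.66 and 13.92 without doxycycline, so the plates without doxycycline were the lowest in level. It fell by 0.97 on the log2 scale (adjusted p = 0.0388 from limma) at a mean Ct of 32.9, and the call was lost without CaSm+Doxy replicate 1 (adjusted p = 0.179) and without Driver+Doxy replicate 3 (0.136). IL8, now named CXCL8, a chemokine induced by NF-κB, was among the closest matches between groups, with a ΔCt of 7.77 and 8.0 on the induced plates and 7.82 and 8.05 on the driver plates. Its log2 fold change was 0.05, and the 95% confidence interval from −0.48 to 0.58 made it the only gene bounded within 1.5-fold, although the sign turns with B2M alone or the all-gene median. NFKB1, the p105 and p50 subunit, was lower on both induced plates, at 4.03 and 4.02 against 3.72 and 3.66. Its −0.33 (−0.84 to 0.18) turns sign with GAPDH alone. IFNA1 and IFNB1 were at the limit on 1 and 3 of the 4 plates. The group median was −0.38.

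TGF-β signaling was represented by the ligand TGFB1 and the receptor TGFBR1. TGFB1 overlapped between groups, at 4.28 and 4.73 against 4.54 and 4.90 (0.22, 95% confidence interval −0.39 to 0.82), and its sign turns with B2M alone or the all-gene median. TGFBR1 had a ΔCt of 6.46 on induced replicate 1 but 9.39 on induced replicate 2, while the driver plates had 9.76 and 9.85 and the plates without doxycycline 9.99 and 9.73. A single induced plate stood apart from the other 5. Its log2 fold change was 1.88 (adjusted p = 0.0641 from limma). Without CaSm+Doxy replicate 1 it was 0.42 (adjusted p = 0.387), without CaSm+Doxy replicate 2 it was 3.35 (1.43e-06), and without Driver+Doxy replicate 2 or 3 it was 1.93 (8.44e-05) or 1.83 (0.000626). TERT, the telomerase subunit, fitted no group, and its log2 fold change of 0.19 had a 95% confidence interval from −0.43 to 0.80 at a mean Ct of 33.5, with a sign that turns with B2M alone or the all-gene median.

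**Figure D4:**
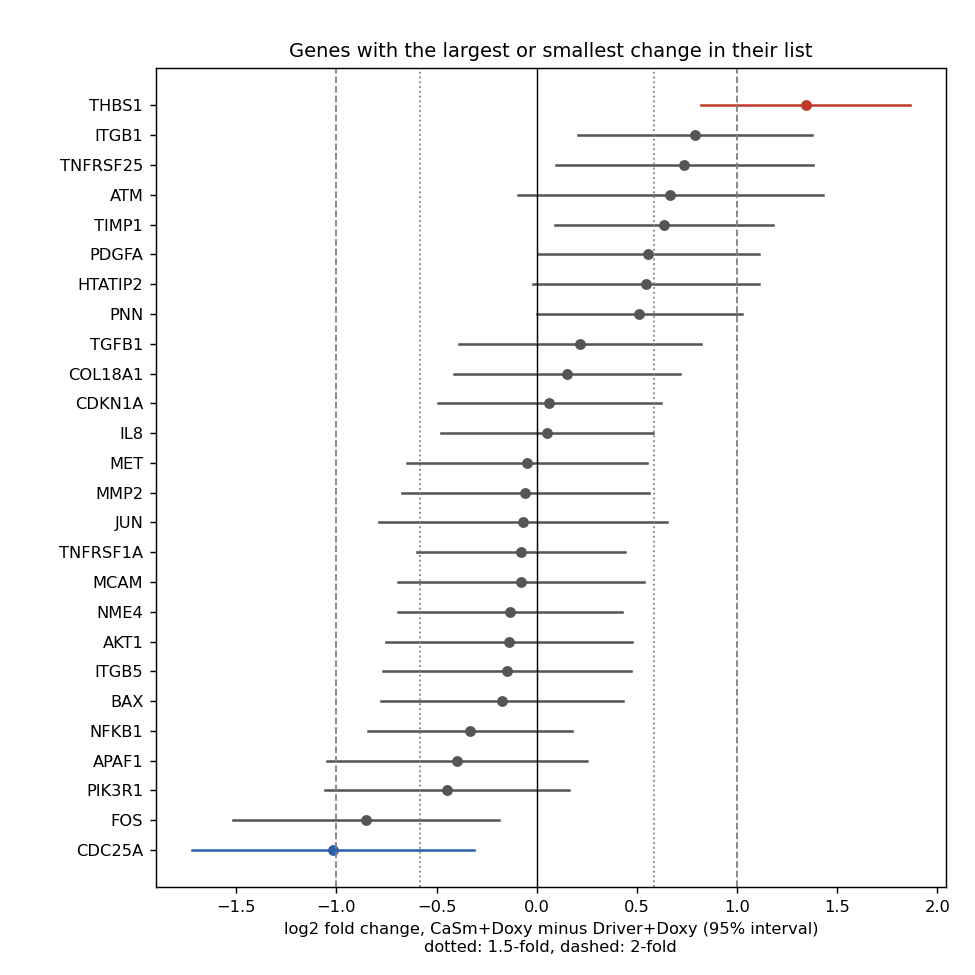
Log2 fold change with 95% confidence interval from limma (horizontal axis) for the most and the least different genes of the functional groups, as named in the text, among genes outside the table printed by the study. Dotted lines mark 1.5-fold and dashed lines 2-fold in each direction. The interval of THBS1 lies wholly above 1.5-fold, and the interval of IL8 lies between the dotted lines.

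Of the 62 genes outside that table that were not called, 52 differed by less than 1.5-fold. For 41 of the 62 the 95% confidence interval lay within 2-fold in both directions, and for 1 within 1.5-fold, so for the others a 2-fold change was not bounded at this number of plates. The remaining 10 differed by at least 1.5-fold, 6 higher and 4 lower. The plates of the 2 groups did not overlap for 23 of the 62, of which 13 were higher and 10 lower in induced cells, beside 54.1% not overlapping among all 85 genes. That share includes the 20 genes of the printed table, which were chosen on these plates and all separated, so it is no independent comparison. With 2 plates a side, a full separation in either direction has an exact permutation p of 0.333. Of the 41, 4 genes (ANGPT1, GZMA, SYK and TIMP3) were at the limit on at least 1 plate, so their narrow intervals rest on capped values, and 37 were measured on all 4 plates. These 37 included 5 of 8 genes of the G1/S group, 4 of 5 of the DNA damage checkpoint group, 4 of 8 integrins, 4 of 7 metastasis-associated genes, 3 of 9 of the protease group, and 1 each of the 7 death receptor and 5 other adhesion genes.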

How the data were processed

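RNA of Panc-1 cells was reverse transcribed and run on a Cancer PathwayFinder real-time PCR array by the authors. They deposited the Ct of each gene and plate, in PCR cycles and without normalization; how the threshold was set is not given in the sources used here. A second deposited table holds the authors' own fold changes against driver cells and was not used. Plates were grouped by their labels. Replicate numbers follow a mark in those labels, which is called a run here only for short. The labels do not name it so, and the sources used here do not say what it stands for. Ct values above 35 were set to 35, and the plate mean of B2M, HPRT1 and GAPDH, the normalizing genes of the study, was subtracted. limma 3.58.1 in R 4.3.3 (lmFit and eBayes without trend) took −ΔCt of all 6 plates, with 3 group means (3 residual degrees of freedom) and Benjamini-Hochberg adjustment over 85 genes. The thresholds were an adjusted p of 0.05 and 1.5-fold. The steps were tested on simulated data, with noise drawn independently for each gene and plate and with no cap. That setting does not cover genes of a plate deviating together, so it does not show the error rate for these plates. Python 3.11.15, pandas 2.3.3 and matplotlib 3.10.9 were used for counts, promoter windows (RefSeq, GRCh38.p14) and figures. Gene symbols were matched to RefSeq names, and IL8 matched as a synonym.

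The functional groups, the genes described and the tests were chosen with earlier results of these data known. Named genes were those called outside the table of 20 genes printed by the study, the most and least different gene of each group outside it with a mean Ct under 30, the called genes of the table and the reference genes. ITGA3, CASP8, CDKN2A, TGFBR1, FGFR2, BCL2L1, MAP2K1, EPDR1, IGF1, PLAU and TERT, other genes given only within a range, and the within-plate gene pairs were added after their values were seen. Counts cover all genes, and the values of 3 genes are not reported here. The alternatives tried were each normalizing gene alone, the median of all genes, a limit at Ct 40, leaving out genes with a mean Ct of 30 or more, the run as a block, a fit to the 4 plates alone, a variance trend, no moderation, linear averaging, run 2 alone, and dropping each plate.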

Additional observations from a re-analysis of the deposited data

How the results depend on the processing

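Of 85 genes, 20 were called in the comparison. The count was 44 with B2M alone, 11 with HPRT1 alone, 10 when Ct was capped at 40, 11 with only the 4 plates compared and 5 without moderation of the variance, and with a plate left out it ranged from 15 to 17. Higher calls (9) became 24 with GAPDH alone, 14 with a variance trend and 3 without moderation, and 6 to 12 with a plate left out. Lower calls (11) became 37 with B2M alone, 4 with HPRT1 alone, 5 with GAPDH alone, 4 when Ct was capped at 40, 4 with only the 4 plates and 2 without moderation, and 5 to 10 with a plate left out. The higher share of calls was 15.9% with B2M alone and 82.8% with GAPDH alone. With B2M alone 49 genes differed by at least 1.5-fold, beside 32. The genes bounded within 2-fold (41) became 26 without moderation and 24 to 31 with a plate left out. With the run as a replicate block over all 6 plates, 16 genes were called, 13 of them among the 20, and 21 genes were bounded within 2-fold. The groups share 1 run, and the run was not shown to pair plates. Directions were followed only for the genes given above with their own log2 fold change, so turns of other tested genes are not listed. Among the genes followed, directions turned for these, in log2 units, with ATM (0.67) the only one of at least 1.5-fold. On run 2 alone, with 1 plate a group and no test, these were ATM (−0.18), TNFRSF1A (0.08), NME4 (0.01), IL8 (−0.18), TGFB1 (−0.19) and TERT (−0.10). With B2M alone these were CDKN1A (−0.41), COL18A1 (−0.32), IL8 (−0.42), TGFB1 (−0.25), PLAU (−0.16) and TERT (−0.28). With the median of all genes they were CDKN1A (−0.19), COL18A1 (−0.10), IL8 (−0.20), TGFB1 (−0.03) and TERT (−0.06). With GAPDH alone they were BAX (0.22), TNFRSF1A (0.32), ITGB5 (0.25), MCAM (0.32), MMP2 (0.34), NME4 (0.26), MET (0.35), AKT1 (0.26), JUN (0.33) and NFKB1 (0.06). With HPRT1 alone they were MMP2 (0.015), MET (0.025) and JUN (0.005). With the replicate block they were IL8 (−0.16), TGFB1 (−0.18) and TERT (−0.022). With a plate left out, the ranges that crossed 0 were −0.35 to 0.077 for AKT1, −0.40 to 0.052 for BAX, −0.018 to 0.14 for CDKN1A, −0.043 to 0.35 for COL18A1, −0.065 to 0.17 for IL8, −0.33 to 0.032 for ITGB5, −0.44 to 0.30 for JUN, −0.35 to 0.19 for MCAM, −0.29 to 0.19 for MET, −0.36 to 0.25 for MMP2, −0.28 to 0.015 for NME4, −0.14 to 0.52 for TERT, −0.0083 to 0.44 for TGFB1 and −0.16 to 0.0017 for TNFRSF1A. The normalizer results follow from its construction, since it adds a constant to each gene; the cause of the others was not tested. The 2 plates a group and late Ct values limit what can be bounded.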
